A study of Homo sapiens with 12 samples.

Results

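Transcripts of EGFR, of its relatives ERBB2 and ERBB3, and of CBLC were described in HCT-116 cells, an established human colorectal carcinoma line, after heteronemin, tetrac or both. The 4 genes were chosen by name, and all 4 were among the 770 genes of a NanoString nCounter PanCancer Progression panel, a method that counts barcoded probes bound to single transcripts without amplification. Heteronemin is a natural product of the sesterterpenoid class isolated from marine sponges. Tetrac, or tetraiodothyroacetic acid, is a derivative of the thyroid hormone thyroxine. The labels put 3 samples each in the groups Heteronemin, Tetrac, Heteronemin+Tetrac and Control, all from the same cell line, with 24 h given as the treatment time. The sources used here give no doses, no vehicle for the control cells and leave unsaid whether a group's samples were grown separately, and the p-values may then measure technical spread only. The study's title names EGFR signalling as the route by which the compounds would slow growth. Receptor protein, its phosphorylation and cell growth were not measured on this transcript panel.

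The ErbB receptors are a family of tyrosine kinases in the cell membrane that pair with each other when a ligand of the EGF family binds. EGFR is the founding member and is carried by most epithelia, ERBB2 has no known ligand of its own and acts as the favoured partner, and ERBB3 binds neuregulins but has little kinase activity, so that it signals mainly through its partners to PI3K. CBLC is the epithelial member of the CBL ubiquitin ligases, which tag activated EGFR for internalisation and breakdown. In colorectal cancer, EGFR is a target of antibody therapy, and activated receptors signal through the RAS-ERK, PI3K-AKT, PLC-gamma and STAT routes.

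The values were the authors' group means of normalized counts, 1 per gene and group, with a p-value for each treated group against control. No single sample's value was analysed here, which leaves the means without an SD, and the lowest mean in any table was 33. All 4 genes lay above that floor in all 4 groups and had a p-value in all 3 tables. The floor held 279 genes in control cells and 61 to 90 genes in the treated groups. Of 10 measured epithelial markers, 1 was at the floor in control cells and the highest, the adhesion molecule EPCAM, had 1814.19. Of 14 measured markers of endothelial, blood and stromal cells, 9 were at the floor in control cells and the highest was COL1A1 at 67.15. Their summed level was 816.01 after heteronemin, 610.63 after tetrac, 707.24 after both and 505.35 in control cells. After heteronemin 2 of 13 tested were called in either direction, 15.4% against 27.1% of the panel. Both, CD34 and COL1A1, were higher, while 112 of the 191 called panel genes were lower. The 9 markers at the floor in control cells could not be lower. Of the 10 epithelial markers, 3 were called higher and 1 lower after heteronemin, 40% against 27.1% of the panel called in either direction. The part of these changes in the receptor values was not tested. In a bulk culture, fewer cells carrying a transcript and less of it per cell cannot be told apart.

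The tables list EGFR under NM_201282.1, ERBB2 under NM_001005862.1, ERBB3 under NM_001005915.1 and CBLC under NM_012116.3. The reference gene table holds 9 curated transcripts of EGFR, 31 of ERBB2, 2 of ERBB3 and 2 of CBLC. The sources used here do not give the bases each probe covers, so full-length and shortened receptor transcripts were not told apart. Probes also differ in efficiency, so a higher count for a gene than for another is not read as more transcript. The marker levels and sums, the distances to the floor and the genes nearest in level compare counts across genes and carry this limit.

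EGFR was the only one of the 4 genes called in any comparison, and the window before its annotated start is shown as the proximal promoter sequence of the gene that was called. Of the 4 genes, 2 had a window in the RefSeq promoter table (build GRCh38.p14), EGFR and ERBB2. The EGFR window covers the 250 bases before the gene's start, chr7:55018767-55019016 on the plus strand, and overlaps the annotated locus LOC105375284. Capitals mark the GC box GGGCGG, here read on the other strand as CCGCCC.
EGFR: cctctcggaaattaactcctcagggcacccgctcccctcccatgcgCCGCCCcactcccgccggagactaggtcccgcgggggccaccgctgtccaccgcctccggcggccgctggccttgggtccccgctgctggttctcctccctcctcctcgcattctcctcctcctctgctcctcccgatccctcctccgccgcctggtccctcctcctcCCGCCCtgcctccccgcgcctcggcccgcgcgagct
The window held 2 GC boxes and 0 copies of TATAAA on either strand, and 73.6% of its bases were G or C. Among 35116 promoter windows of the same length, 42.6% held a GC box, 10.7% held TATAAA on either strand, and the median share of G and C was 58%. The tables do not measure the promoter, and these matches describe its letters only.

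EGFR had authors' means of 385.47 after heteronemin, 462.35 after tetrac and 403.72 after both, against 501.57 in control cells. All 3 treated means were lower than the control mean, and the order was the heteronemin group lowest, then the combination, then tetrac, then control. After heteronemin the EGFR mean was 1.30-fold lower than in control cells (log2 ratio -0.38), with p = 0.04 in the authors' deposited table. After the combination it was 1.24-fold lower (log2 ratio -0.31), with p = 0.01 in the authors' deposited table. After tetrac its log2 ratio was -0.12, and it was not called, at p = 0.29 in the authors' deposited table. The 3 comparisons share the control samples, so they are not separate observations of a lower EGFR. Neighbours in the order differed 1.05-fold, 1.15-fold and 1.08-fold, and of these steps only that from control to tetrac has a p-value.

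ERBB2 had authors' means of 130.33 after heteronemin, 134.07 after tetrac and 99.48 after both, against 99.86 in control cells. The means of the single treatments were 30.5% and 34.3% above the control mean, and the mean after both compounds was next to the control mean. The log2 ratio was 0.38 after heteronemin and 0.43 after tetrac, and -0.0055 with both compounds. None was called: the p-values were 0.25, 0.09 and 0.97 in the authors' deposited table, in the same order.

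ERBB3 had authors' means of 99.5 after heteronemin, 74.24 after tetrac and 59.38 after both, against 78.2 in control cells. The heteronemin mean was the highest of the 4 and the combination mean the lowest, 1.80 times the floor. The log2 ratio to control was 0.35 after heteronemin, -0.07 after tetrac and -0.40 after both. The p-values were 0.42, 0.84 and 0.44 in the authors' deposited table, so these ratios were not called, although 2 of them were close in size to the called ones of EGFR.

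CBLC had authors' means of 57.9 after heteronemin, 72.35 after tetrac and 85.45 after both, against 77.21 in control cells. Its order was the reverse of that of ERBB3 for heteronemin and the combination, with heteronemin lowest at 1.75 times the floor and the combination highest. The log2 ratio to control was -0.42 after heteronemin, -0.09 after tetrac and 0.15 after both. The p-values were 0.13, 0.52 and 0.38 in the authors' deposited table, and no difference was called.

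**Figure D1:**
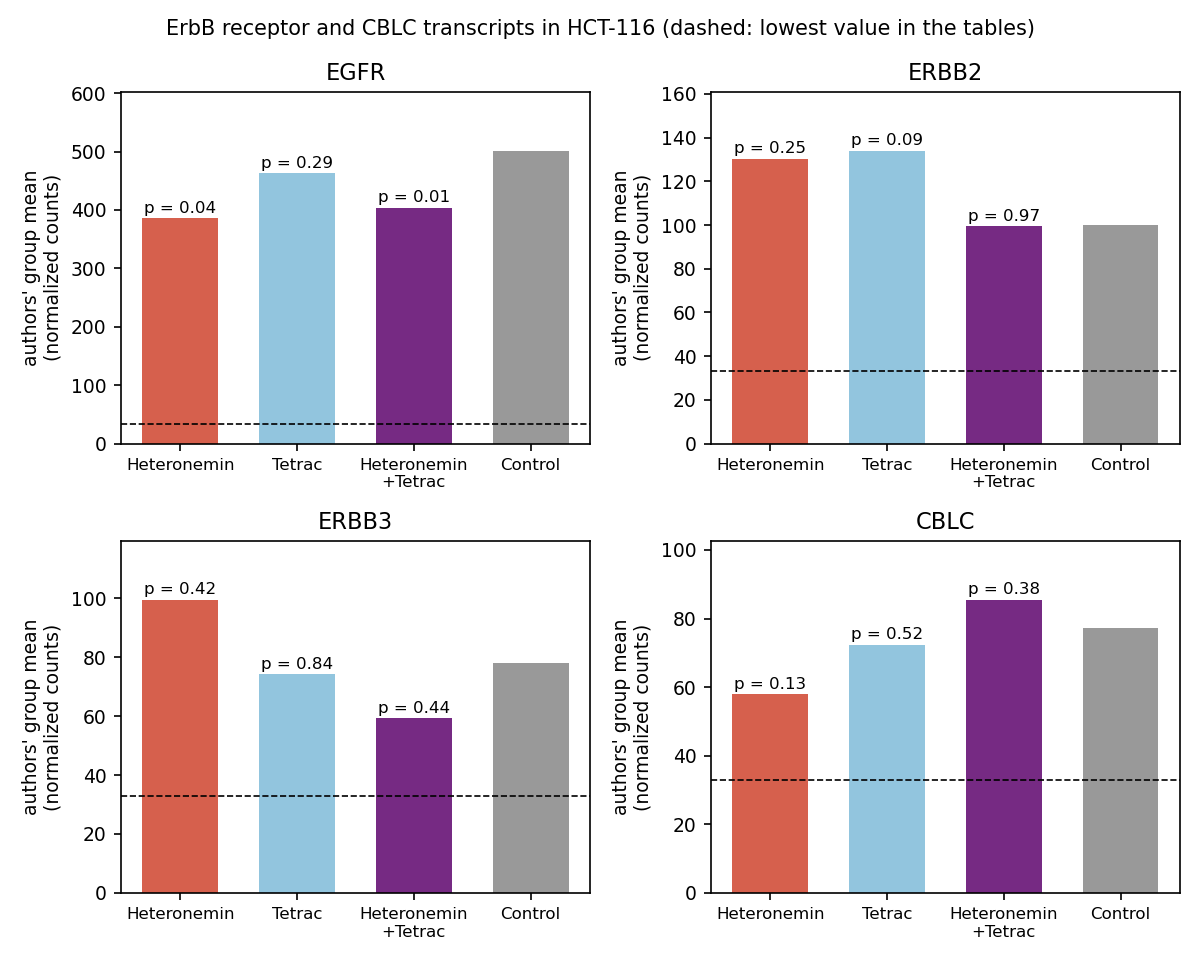
Authors' group means of normalized counts (y axis, starting at 0) for EGFR, ERBB2, ERBB3 and CBLC in the 3 treated groups and control, with the authors' p-value against control above each treated bar; there are no error bars because only group means were analysed, and the dashed line is the lowest value of the tables, 33. EGFR is below control in every treated group, while the other genes change order between treatments.

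Set beside the panel, 1 of the 4 genes was called after heteronemin, where 27.1% of 704 tested genes were called at an unadjusted p under 0.05 and 15.9% were called lower. After the combination 1 of 4 was called, against 22.3% of 686 tested genes and 14.1% called lower, and after tetrac 0 of 4, against 1.26% of 714 (0.98% lower). With Benjamini-Hochberg adjustment of the p-values as printed, over all genes of a table, 0 of the 4 passed in any comparison, against 5.82% of the panel for heteronemin, 0% for tetrac and 7% for the combination. A printed p of 0.01 gave an adjusted p of 0.083 for heteronemin and 0.075 for the combination, so only a printed 0 could pass. On the largest p that each printed value can stand for, 0 genes of the panel passed. These shares thus rest on the 2 printed decimals. Counting only called genes at 1.5-fold or more also left 0 of the 4, against 13.5% of the panel after heteronemin and 10.1% after the combination. The count of members called is thus close to that of the panel in each comparison. EGFR ranked 105th lowest of 770 genes by log2 ratio after heteronemin and 110th lowest after the combination. ERBB2 was at rank 136 from the highest after tetrac, and ERBB3 at rank 74 from the lowest after the combination. CBLC ranked 89th lowest after heteronemin.

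**Figure D2:**
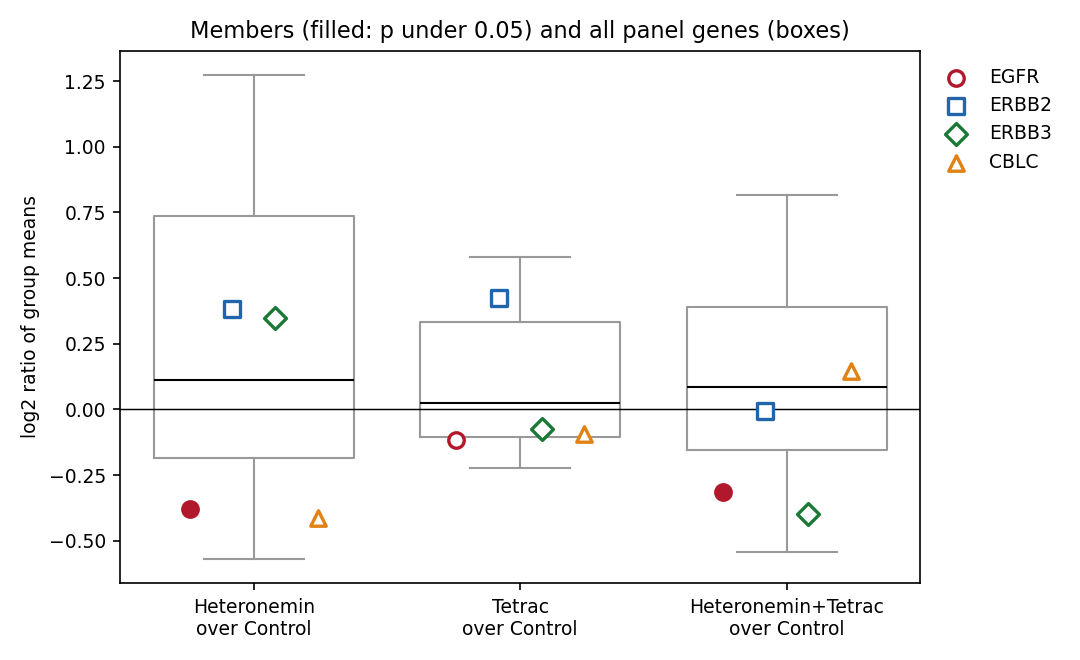
Log2 ratios of each treated mean over the control mean for the 4 genes (symbols, filled where the authors' p is under 0.05) beside all 770 genes (boxes span the middle quartiles with the median, whiskers the 5th to the 95th percentile). Every symbol lies within the whiskers, and the 2 filled ones are EGFR after heteronemin and after the combination.

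Housekeeping genes and genes of like level give a closer reference. The 30 housekeeping genes had a median log2 ratio of -0.08 after heteronemin, -0.04 after tetrac and -0.02 with both, and 2 of them lay at or below EGFR after heteronemin and 2 after the combination. After heteronemin 8 housekeeping genes were called lower and 2 higher. Among the 51 genes nearest to EGFR in mean level, from 359 to 540 counts, the median log2 ratio was -0.21 after heteronemin, and 19 were called lower and 5 higher. EGFR differed from the median of these genes by -0.17 after heteronemin, 0.0023 after tetrac and -0.19 with both. After heteronemin 12 of the 51 genes had a lower ratio than EGFR, and after the combination 13.

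ERBB2, ERBB3 and CBLC lay closer to the floor than EGFR did. Of the 51 genes nearest to ERBB2 in level, 13 were called after heteronemin, the smallest at a log2 ratio of 0.33 in size, so a ratio like that of ERBB2 was called for some genes of its level. After tetrac 4 of these 51 genes had a higher ratio than ERBB2. The 51 genes nearest to ERBB3 had a median log2 ratio of 0.72 after heteronemin and 0.34 after the combination, and ERBB3 differed from these medians by -0.37 and -0.74. The 51 genes nearest to CBLC had a median of 0.85 after heteronemin, 24 of them called higher, and 2 had a lower ratio than CBLC. Because the treated values enter the mean level, near the floor many of these neighbours hold their place through their own rise. The share of this in the differences of ERBB3 and CBLC was not tested.

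**Figure D3:**
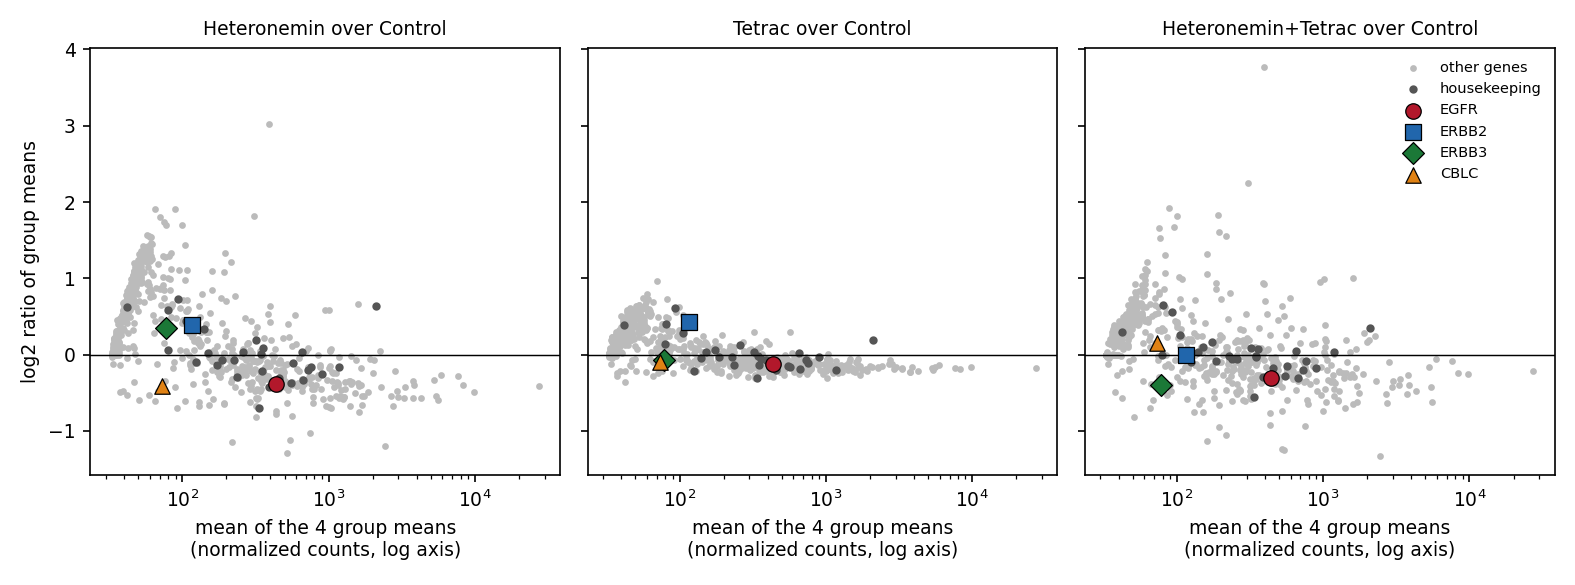
Log2 ratio of group means (y axis) against the mean of the 4 group means in normalized counts (x axis, log scale) for each treatment over control, with the 4 genes, the housekeeping genes (dark) and all other genes (grey). EGFR lies in the lower part of the band of genes at its level after heteronemin and the combination, and CBLC lies below nearly all genes of its level after heteronemin.

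The treated groups were next set against each other to ask what each compound added to the other. The tables hold no test of these differences, so they are described by fold alone. The mean after both compounds over that after heteronemin gave log2 ratios of 0.07 for EGFR, -0.39 for ERBB2, -0.74 for ERBB3 and 0.56 for CBLC. ERBB3 was 1.68-fold lower in the combination, the 1 gene of the 4 past 1.5-fold, where 9.87% of 770 genes were past that fold and 9.61% were lower by it. CBLC was 1.48-fold higher in the combination, which was at rank 3 from the highest among all 770 genes. With tetrac as the reference, the combination gave log2 ratios of -0.20 for EGFR, -0.43 for ERBB2, -0.32 for ERBB3 and 0.24 for CBLC. All 4 stayed under 1.5-fold, which 6.49% of the panel passed, and ERBB2 had the 44th lowest ratio of the panel. Heteronemin over tetrac gave -0.26 for EGFR, -0.04 for ERBB2, 0.42 for ERBB3 and -0.32 for CBLC, again all under 1.5-fold, which 16.2% of the panel passed.

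The log2 ratio of the combination was then compared with the sum of the ratios of the single compounds. For EGFR the sum was -0.50 and the combination lay 0.18 above it, against a median of 0.26 for the 51 genes of nearest level. Of the 4 genes ERBB2 lay furthest below its sum, which was 0.81, with a difference of -0.81, and 2 of the 51 genes nearest in level lay lower. ERBB3 had a difference of -0.67, and 17 of its 51 neighbours lay lower. CBLC went the other way, with a sum of -0.51 and a difference of 0.66, at rank 3 from the highest among 770 genes, after the laminin chain gene LAMB3 at 0.99 and the ephrin receptor gene EPHA2 at 0.82, which are named here because they rank above it. None of the 51 genes nearest to CBLC had a higher value, and their median was -0.58. In all, 3 of the 4 genes departed from the sum by 1.5-fold or more, as did 29.6% of the panel, 0.649% upwards and 29% downwards. With each ratio taken relative to the 51 genes nearest in level, the differences were -0.022 for EGFR, -0.57 for ERBB2, -0.12 for ERBB3 and 1.27 for CBLC, and only CBLC passed 1.5-fold. Centred on the housekeeping median they were 0.088, -0.91, -0.77 and 0.56 in the same order, and ERBB2 and ERBB3 passed but CBLC did not. The 279 genes at the floor in control cells can only have single ratios of 0 or more, and so sums of 0 or more. CBLC had 77.21 in control cells, above the floor. The part of this in the neighbours' medians, the downward share and the values relative to genes of like level was not tested. These differences combine all 4 means of a gene and have no error here, and CBLC, ERBB2 and ERBB3 were each uncalled in every comparison with control.

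**Figure D4:**
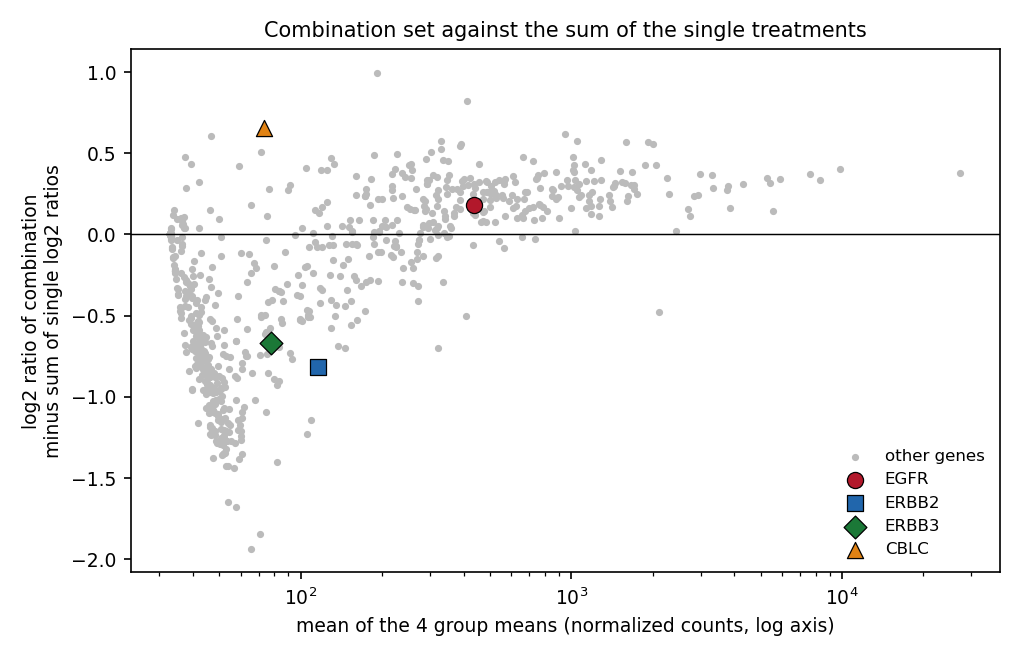
Log2 ratio of the combination to control minus the sum of the log2 ratios of both single treatments (y axis) against the mean of the 4 group means in normalized counts (x axis, log scale). CBLC, at 0.66, lies above all grey points near its level, ERBB2, at -0.81, lies near the lower edge at its level, and EGFR, at 0.18, lies within the band.

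Ligands of the family did not pass the threshold in any comparison. The panel measured 3 of 11 listed ligands. Epiregulin, encoded by EREG, which binds EGFR, had authors' means of 2429.57 after heteronemin, 3181.91 after tetrac and 2803.39 after both, against 3562.34 in control cells. All treated means were lower, with p-values of 0.05, 0.39 and 0.06 in the authors' deposited table, and since p is printed to 2 decimals the first lies at the threshold. Amphiregulin, encoded by AREG, another EGFR ligand, had 1752.95, 1859.58 and 2315.05 after heteronemin, tetrac and both, against 2070.83 in control cells. It was lower after each compound and higher after both, with p-values of 0.09, 0.47 and 0.32 in the authors' deposited table. EGF itself had 56.17, 38.55 and 42.67 in the same order and was at the floor of 33 in control cells, uncalled throughout.

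Sheddases, which cut ligand precursors from the cell surface, moved in both directions. ADAM17, which releases amphiregulin, had authors' means of 571.14 after heteronemin, 430.65 after tetrac and 671.89 after both, against 433.92 in control cells. It rose 1.32-fold after heteronemin and 1.55-fold after the combination, with a printed p of 0, which stands for any p below 0.005, and of 0.01 in the authors' deposited table. After heteronemin ADAM9 fell by 0.48 on the log2 scale.

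Among genes of receptor turnover, CBLC and the caveolar coat protein CAV1 were the 2 measured of 11 listed. After heteronemin CAV1 fell by 1.03 on the log2 scale, and after the combination by 0.93. Of 7 measured adaptor and RAS-ERK genes, MAPK3, which encodes ERK1, was the 1 called in each comparison, lower each time, with authors' means of 340.38 after heteronemin, 475.89 after tetrac and 343.3 after both, against 585.64 in control cells. MAPK3 was called lower after tetrac, where 0.98% of the panel was called lower. The counts that follow stand beside 15.9% of the panel called lower after heteronemin and 14.1% after the combination. Of 3 genes of the PLC, STAT and SRC routes, PLCG1 and STAT3 fell after heteronemin, by 0.48 and 0.36 on the log2 scale, and PLCG1 after the combination, by 0.42. Of 7 PI3K genes, 4 fell after heteronemin: AKT1 by 0.54, AKT2 by 0.40, PIK3CA by 0.32 and MTOR by 0.17 on the log2 scale. After the combination PIK3R2 and AKT1 fell, by 0.46 and 0.45, and after tetrac 0 of the 7 were called.

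Counted over all lists without the 4 genes, 40 of 91 listed genes were measured. After heteronemin 1 of 37 tested genes rose and 9 fell, 27% against 27.1% of the panel, with a median log2 ratio of -0.05 against 0.11 for all genes. After tetrac 1 of 39 rose and 1 fell, 5.13% against 1.26% of the panel, with a median log2 ratio of -0.07 against 0.02 for all genes. After the combination 1 of 37 rose and 6 fell, 18.9% against 22.3% of the panel, with a median of -0.15 against 0.09 for all genes. The all-gene medians include the 279 genes at the floor in control cells, which cannot have a negative ratio, as do 10 of the 40 listed genes. Among the 356 panel genes of mean level 100 or more, the median was -0.19 for heteronemin, -0.11 for tetrac and -0.15 with both compounds. To 2 decimals, no median over all lists without the 4 genes lay below these, but medians of some single lists did. Whether the lists differ from genes of like level was not tested. After heteronemin and after the combination, where EGFR was called lower, most called genes of the lists were lower, at shares called of 27% and 18.9%. Most called genes of the panel were lower as well, 112 of 191 after heteronemin and 97 of 153 after the combination.

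**Figure D5:**
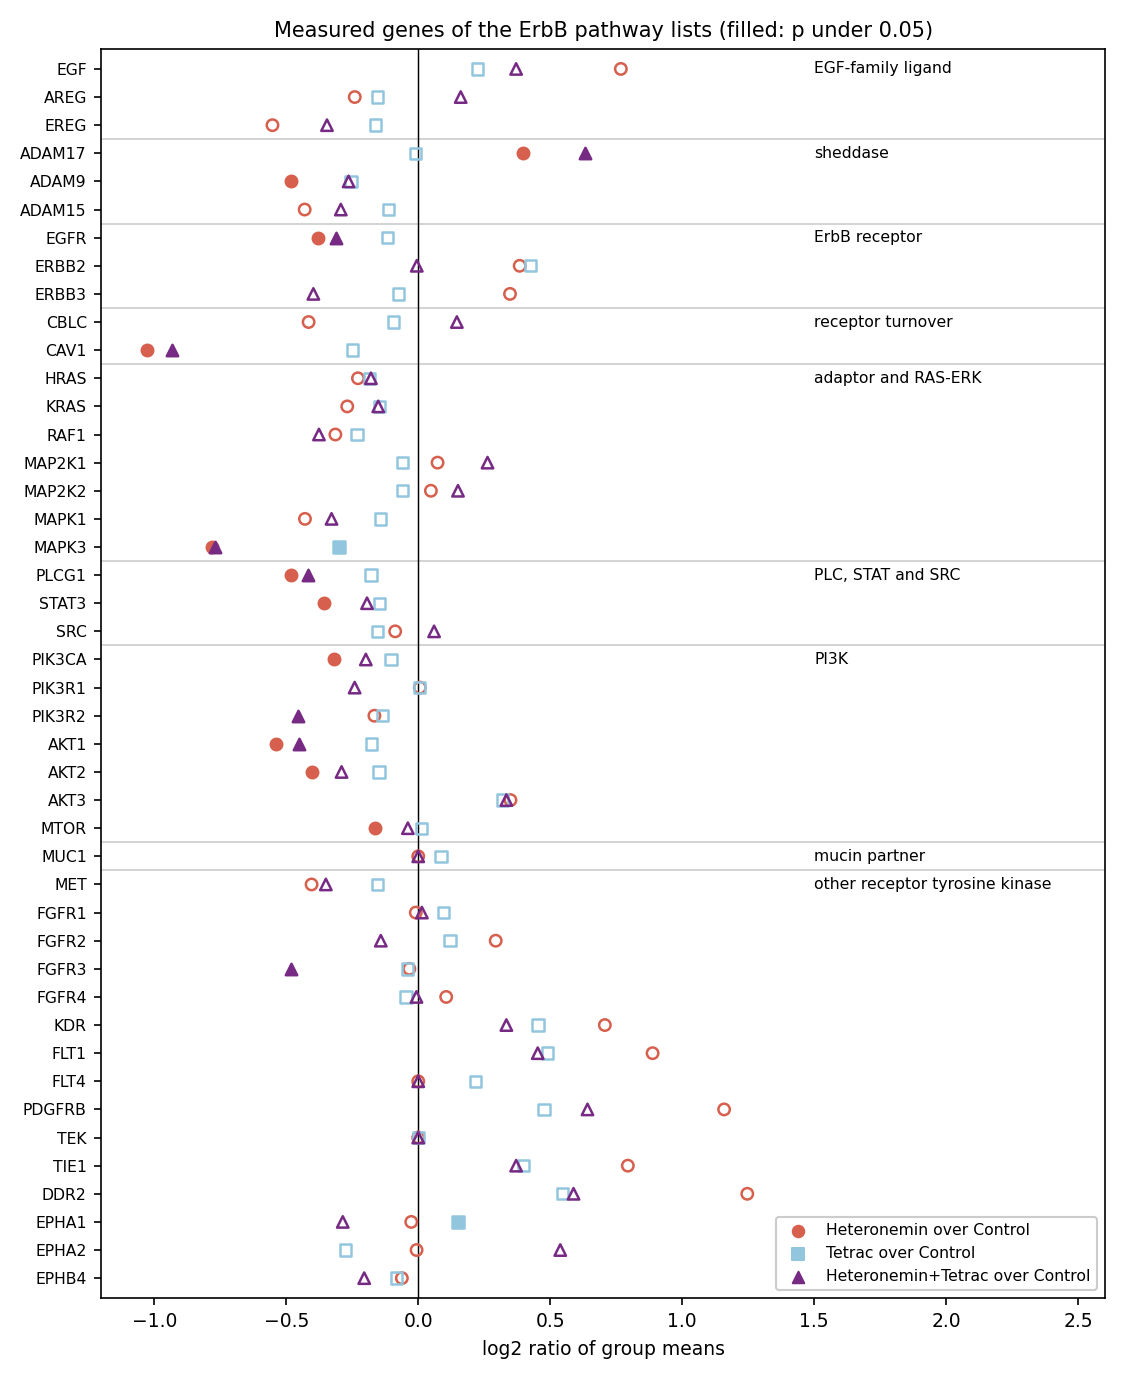
Log2 ratios of each treated mean over the control mean (x axis) for the measured genes of the pathway lists, grouped by role from ligands to other receptor tyrosine kinases, filled where the authors' p is under 0.05. Filled symbols lie left of 0 for all called genes except ADAM17 and, after tetrac, EPHA1.

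Genes with a pattern most like that of each member were found by the distance between their 3 log2 ratios to control, over 481 genes above the floor in all groups. EGFR was followed most closely by the transcriptional coregulator gene TCF20, the histone deacetylase gene HDAC3 and the cytoskeletal linker gene DST, at distances of 0.016, 0.041 and 0.042 on the log2 scale. ERBB2 had CXADR, an adhesion receptor of epithelial junctions, the elastic fibre gene FBLN5 and the urotensin gene UTS2 at 0.13, 0.18 and 0.18, and ERBB3 had the LIM domain gene FHL1, the cytokine receptor gene LIFR and ANG, which encodes angiogenin, at 0.22, 0.31 and 0.32. CBLC had the liprin gene PPFIBP2, the ligand gene AREG and the chaperone gene HSP90B1 at 0.089, 0.19 and 0.20. EGFR thus shared its pattern closely with other genes, and the nearest genes to ERBB3 were further away. The distances rest on 4 group means per gene and the shared control, and carry no test.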

How the data were processed

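RNA of 12 samples was measured, 3 in each of 4 groups. The authors normalized raw counts with nSolver 4.0 (per the series' design text), by a positive control factor per sample and a biological step whose reference genes are not given there. The authors deposited a normalized signal (group mean) for the treated group and for control in each of 3 tables, a score that is the signed fold change, and an unadjusted p-value with 2 decimals that is blank for genes at the floor in both groups. The score matched the quotient of the means within 0.00511. The sources used here name neither the test that gave the p-value nor the type of mean, and the raw depth is unknown, so no interval can be given. Log2 ratios of the means were computed with Python 3.11.15, numpy 2.4.6 and pandas 2.3.3, and the code was tested on simulated data.

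A gene was called at p under 0.05. The named genes are the 4 members, all measured EGF-family ligands, up to 4 called genes per list and comparison, and the 3 genes of nearest pattern per member. LAMB3, EPHA2, MUC1 and the marker genes EPCAM, COL1A1 and CD34 lie outside this rule and were named after their values were seen. The members and the 10 pathway lists were chosen with earlier results of these data known. Lists are described by counts and medians, and 1 listed gene is not reported here. Neighbours in level are the 51 genes nearest in mean level. Gene names are those of the tables, of which 755 of 770 are current symbols, and promoter sequence is from RefSeq, GRCh38.p14.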

Additional observations from a re-analysis of the deposited data

How the results depend on the processing

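The call of EGFR rested on the unadjusted p. With Benjamini-Hochberg adjustment over all genes, EGFR had an adjusted p of 0.147 after heteronemin and 0.0754 after the combination on the p-values as printed. On the largest p that each printed value can stand for, it had 0.166 and 0.113. Thus 0 members passed in either comparison under both, and on the largest p-values 0 genes of the panel passed, against 191 and 153 at the unadjusted p under 0.05. With a fold of 1.5 required as well, 0 members were called in either comparison. Of 48 member ratios recomputed with other references, 44 kept their direction. The other 4 turned, none of them called: ERBB3 after heteronemin to -0.37, EGFR after tetrac to 0.0023 and CBLC after the combination to -0.33, each relative to the 51 genes nearest in level, and ERBB2 after the combination to 0.017 relative to the housekeeping median. References for the comparisons between treatments were added after seeing the data. The number of members past 1.5-fold for the combination over heteronemin was 2 rather than 1 when centred on the median of all genes or with the floor subtracted, that for heteronemin over tetrac was 1 rather than 0 relative to genes of like level, and that for the departure from the sum was 1 rather than 3. Centred on the housekeeping median, the last was 2, with CBLC at 0.56 under 1.5-fold. Centring on all genes shifts the heteronemin ratios by 0.11. No paired analysis was possible because the tables hold group means only, and leaving out replicates was not run for the same reason.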

Other observations

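Other receptor tyrosine kinases, the class to which the ErbB receptors belong, were measured for 15 of 28 listed genes. Of these 15 genes, 7 were at the floor in control cells, as were 279 of the 770 genes of the panel. After heteronemin 0 of 13 tested genes were called by the authors' p-values, against 27.1% of the panel. After tetrac EPHA1, an ephrin receptor, rose, to an authors' mean of 173.51 against 156.32 in control cells, with p = 0.03 in the authors' deposited table, as 1 of 14, against 1.26% of the panel called. After the combination FGFR3, a fibroblast growth factor receptor, fell to an authors' mean of 211.77, against 295.58 in control cells, with p = 0.04 in the authors' deposited table, as 1 of 13, against 22.3% of the panel called. FGFR3 had 288.76 after heteronemin and 287.34 after tetrac, both uncalled. The mucin MUC1, a known partner of ErbB receptors, was at the floor of 33 after heteronemin, after the combination and in control cells, and had 35.03 after tetrac.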
